A study of Mus musculus with 8 samples.

Results

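The osteoblast transcription factors Runx1, Runx2, Sp7, Dlx3, Dlx5, Dlx6, Msx1, Msx2 and Twist1 were examined in cultured bone marrow mesenchymal stem cells (MSCs) of C57BL/6 mice. They were chosen by gene name, and all 9 were found among the 47643 named genes of the RNA-seq table and among the 15327 genes that passed the filter on low counts. Their N6-methyladenosine (m6A) sites were taken from 10160 peaks of MeRIP-Seq, which sequences RNA fragments bound by an antibody to m6A. RNA-seq compared 2 libraries labelled wild type, which the study describes as Mettl3fl/fl littermates, with 2 libraries labelled Prx1-Cre;Mettl3fl/fl. Mettl3 is the enzyme that writes m6A. In the Prx1-Cre;Mettl3fl/fl mice, Cre driven by a Prx1 enhancer, active in limb mesenchyme, removes a pair of Mettl3 exons, so blood-derived cells of the marrow are not its target. MeRIP-Seq used cells labelled wild type only, with 2 immunoprecipitates and 2 inputs. All cells, the controls included, had spent 2 days in osteogenic medium that contained dexamethasone (100 nM), β-glycerophosphate (5 mM) and ascorbic acid (50 µg/ml). Age of the mice, pooling and the number of separate cultures behind the libraries were not given, so p-values measure only the spread between these libraries, which may be technical.

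Runx2, which binds DNA with its partner Cbfb, is required for cells to enter the osteoblast lineage, and Sp7 (osterix), a zinc finger factor, acts after it. Dlx3, Dlx5 and Dlx6 are homeodomain activators that bind regulatory sites of Runx2 and of bone matrix genes. Msx1 and Msx2 bind similar homeodomain sites and can act as repressors there, and Twist1 is a basic helix-loop-helix (HLH) factor of early mesenchyme that holds back Runx2 activity. METTL3 methylates adenosines mostly in the sequence GGAC and its variants, often around the stop codon.

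The libraries held between 23948200 and 34069223 counts in named genes. Mettl3 itself, counted over the whole gene, measured 17.3 ± 0.508 CPM (counts scaled to library size, SD, n = 2) in the control-labelled and 16.9 ± 0.837 CPM in the knockout-labelled libraries, with a log2 fold change of −0.03 (edgeR, adjusted p = 0.824). These counts do not show the deletion, which removes only a pair of exons, so groups are called by their labels throughout. The paper reports loss of Mettl3 by immunostaining and western blot, and a lower m6A level in MSCs. The control-labelled pair differed far more than the knockout-labelled pair, with chi-square statistics of 32.6 and 1.82 times their expectation. All 12 marrow stromal markers were detected, although Lepr had only 19 to 37 counts per library. All 12 hematopoietic and macrophage markers were also present. Their summed level was 5434 to 5857 TPM (a level per transcript length) in the control-labelled and 6566 TPM in both knockout-labelled libraries. The stromal markers summed to 848 to 947 TPM over the 4 libraries. Such sums depend on which genes are listed and do not count cells. Tyrobp alone averaged 1742 TPM in the control-labelled and 1663 TPM in the knockout-labelled libraries. The summed level of 11 cartilage markers was 1441 and 1470 TPM in the control-labelled and 67.2 and 66.8 TPM in the knockout-labelled libraries. Of the 10 tested, 9 were lower at an adjusted p of 0.05 (edgeR), as were 16.8% of all genes. Of 10 adipocyte markers 7 were higher and 2 lower, beside 13.7% and 16.8% of all genes. Their sums were 560 to 623 TPM in the control-labelled and 904 to 920 TPM in the knockout-labelled libraries. Neutrophil (3.87 to 20.8 TPM), endothelial (4.87 and 5.25, then 12.02 and 11.51 TPM) and erythroid or megakaryocyte markers (9.13 to 52.7 TPM) were low. S100a9, Mpo and Ltf of the neutrophil list and Hbb-bt of the erythroid list had no count in any library.

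The factors did not all move one way. Twist1 was higher in the knockout-labelled libraries by 2.72-fold, whereas Dlx3, Dlx5, Sp7, Msx2, Msx1 and Runx2 were lower, from 1.39-fold for Runx2 to 5.55-fold for Dlx5 and more for the scarcely counted Dlx3. Runx1 and Dlx6 did not pass the test. Thus 7 of 9 factors passed an adjusted p of 0.05 in edgeR's quasi-likelihood test (two-sided, Benjamini-Hochberg adjustment over all genes tested), where 30.5% of all genes did. In the lower direction the count was 6 of 9, with 16.8% of all genes, and in the higher direction 1 of 9, with 13.7%. These counts include Dlx3, which passed the filter only through the control-labelled libraries and had to be lower. Without it, 6 of 8 passed, 5 of them lower. The median log2 fold change of the factors was −0.57 (−0.0038 over all genes). In 8 of 9 factors the libraries of the 2 labels did not overlap in CPM, which held for 68.9% of all genes tested. Both knockout-labelled libraries were below both controls for 7 factors (35.0% of all genes) and above them for 1 (33.9%). Dlx3, with its direction fixed by the filter, is counted among these 8 and 7 and in the median. It is also among the factors that passed in each setting below, except limma and the fit without knockout-labelled library 2. With DESeq2 6 of 9 factors passed, with 22.5% of all genes, and with limma on log2(TPM + 0.1) or log2(TPM + 1) 4 of the 8 with a value, with 20.0% or 20.1%. Summing the knockout-labelled pair into 1 sample left 5 factors past the threshold, with 12.5% of all genes. With no filter on low counts 7 factors passed, with 25.0% of all genes, and with size factors by median of ratios 7, with 30.4%. The shares of all genes called moved strongly with single libraries. Without control-labelled library 1 or 2, 8 or 7 factors passed beside 55.8% or 50.0% of all genes, and without knockout-labelled library 1 or 2, 5 or 4 factors passed beside 12.0% or 11.8%. In bulk RNA, fewer cells of a type and less RNA per cell cannot be told apart, and the part of the lower cartilage markers in the lower levels of the factors was not tested.

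**Figure D1:**
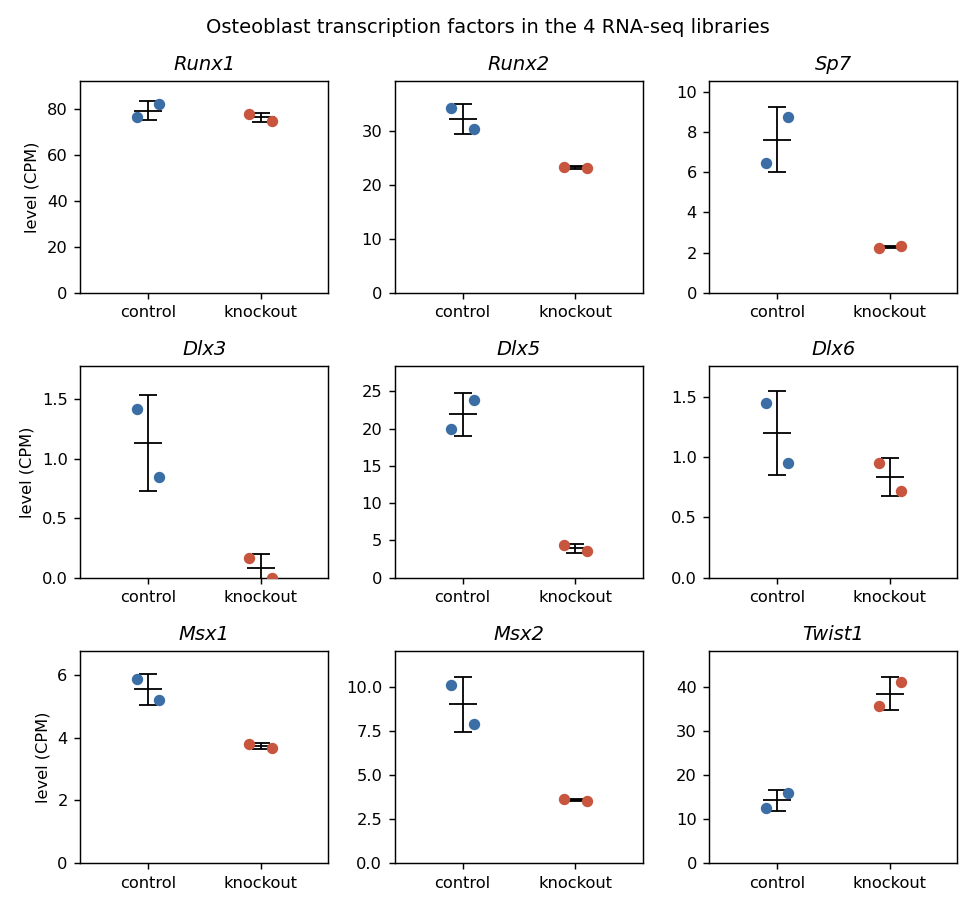
Level of each of the 9 factors in CPM (vertical axis, from 0) in the control-labelled (blue) and knockout-labelled (red) libraries. Points are libraries, the long bar is the mean and the whiskers are the SD of 2 libraries. Only the points of Runx1 overlap between the labels, and only those of Twist1 are higher on the knockout side.

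Of the 9 factors 6 held an m6A peak, by a summit within the gene on the mm9 genome, and 42.0% of the tested genes annotated on mm9 did so. Counted by any overlap of a peak with an exon, the same 6 factors held one, with 40.9% of those genes. The share rose with expression over all genes, from 17.5% in the lowest to 53.7% in the highest of 5 equal bins of control-labelled CPM. Dlx3 was in the lowest bin and held a peak, and Sp7, Msx1, Msx2 and Twist1, also with a peak, were in the second, where 38.1% of genes held one. Runx2 and Dlx5, in the third bin (48.0%), held none, nor did Dlx6 in the lowest. A peak above the median −log10 q-value was held by Runx1, Sp7 and Twist1, 3 of 9 factors and 25.5% of genes, and one above the median fold enrichment by 5 of 9 (all but Sp7 of those with a peak) and 23.6% of genes. The peaks came as 1 list without replicate values, so none of these positions carries an error.

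Runx1 held 2 peaks. The first, at chr16:92605774-92606032 (mm9, minus strand, 259 bp), spanned the end of the coding sequence (CDS), with its summit in the last of 8 exons, 4 nt past the last coding base. The other, at chr16:92696163-92696400 (238 bp), lay in the first exon of another transcript model, which starts within an intron of the model with the longer CDS, and its summit was in the 5′UTR, 244 nt before the first coding base. Their fold enrichments over the local background, as given by the authors' peak caller, were 3.1 and 4.22, on both sides of the median of 4.03 over all peaks. Sp7 held a 584 bp peak in the coding part of its second and last exon (chr15:102189231-102189814, minus strand), 802 nt upstream of the last coding base, with a fold enrichment of 3.76.

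Of the homeodomain factors, Dlx3, Msx1 and Msx2 held a peak, each with higher enrichment on fewer fragments than the peaks of Runx1 and Sp7. The Dlx3 peak (chr11:94984909-94985418, plus strand, 510 bp) had its summit in the 3′UTR, 156 nt past the last coding base, and a fold enrichment of 7.81, above that of 93.2% of peaks. The Msx1 peak (chr5:38212039-38212260, minus strand, 222 bp) was in the 3′UTR as well, 380 nt past the last coding base, with a fold enrichment of 7.49, above that of 91.9% of peaks. The Msx2 peak (chr13:53563604-53563832, minus strand, 229 bp) was instead in the CDS, 215 nt upstream of its last base, with a fold enrichment of 5.58. These 3 peaks rested on 23 or 24 fragments at the summit, below the median of 60 over all peaks, and their −log10 q-values of 14.1 (Dlx3), 13.1 (Msx1) and 9.53 (Msx2) were below the median of 14.2. The Twist1 peak (chr12:34643919-34644286, plus strand, 368 bp) had 75 fragments and a −log10 q-value of 28.7, the highest among the factors. Its summit was in the 3′UTR in the second of 2 exons, 124 nt past the last coding base, with a fold enrichment of 5.56.

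**Figure D2:**
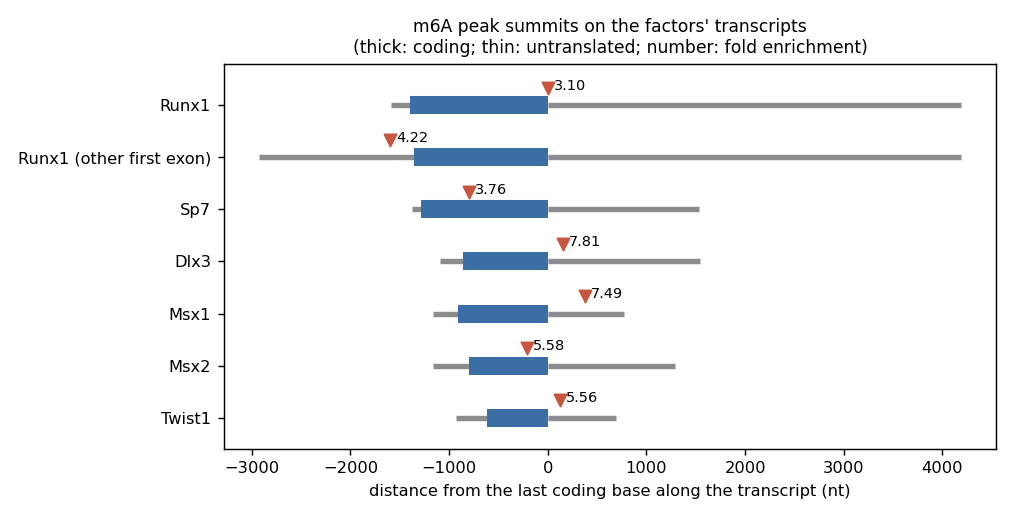
Summits of the m6A peaks (triangles, with the authors' fold enrichment beside each) on the transcripts of the factors, drawn by distance in nt from the last coding base (0 on the horizontal axis). Thick bars are coding sequence and thin bars are untranslated regions. Summits of Runx1, Dlx3, Msx1 and Twist1 lie between 4 and 380 nt past the last coding base, those of Sp7 and Msx2 lie 802 and 215 nt before it, and the other Runx1 summit is in the 5′UTR of a model with another first exon.

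GGAC was searched in each peak on the strand of its gene only. It occurred at least once in 6 of the 7 peaks of the factors and in 86.9% of the 8713 peaks that lie within genes of 1 strand (95% Wilson interval 86.2% to 87.6%, counting error only). Dlx3 had the most with 7, Sp7 had 5, the second Runx1 peak, Msx1 and Twist1 had 2 each, the first Runx1 peak had 1, and Msx2 had none. The window around the GGAC nearest to the summit is shown for each peak that holds one, since it is the candidate position of the methylated adenosine, and the capitals mark GGAC. The letters are of the mm9 reference on the transcript strand. A match describes the sequence and is not a measured site.
Runx1, last exon, chr16:92605862-92605889, minus strand: atcgccatcgagGGACtgggcctgccgt
Runx1, first exon of the other model, chr16:92696309-92696336, minus strand: attttgcctccgGGACcgtttgtaatag
Sp7, CDS, chr15:102189372-102189399, minus strand: tactccttggtgGGACatgcaccctggg
Dlx3, 3′UTR, chr11:94985199-94985226, plus strand: cccttcttccagGGACccaacaacctcc
Msx1, 3′UTR, chr5:38212089-38212116, minus strand: tgaaaccaggcaGGACttgcacagagaa
Twist1, 3′UTR, chr12:34644052-34644079, plus strand: gaaggagaaaatGGACagtctagagact

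The adenosines of these motifs were 10 nt from the summit in Dlx3, 12 nt in Sp7, 18 nt in Msx1, 24 nt in the last exon of Runx1, 49 nt in Twist1 and 80 nt in the first exon of Runx1, where the median over all peaks was 28 nt. Absence of a peak did not go with absence of the letters. The annotated exons of Runx2 held 34 GGAC (3.85 per kb), those of Dlx6 9 (3.79 per kb) and those of Dlx5 5 (3.51 per kb). The factors with a peak ranged from 2.56 per kb in Runx1 to 8.72 per kb in Dlx3. Having a peak did not sort the factors by direction either. Among the 6 with a peak, Sp7, Dlx3, Msx1 and Msx2 were lower, Twist1 was higher and Runx1 did not pass the test, and of the 3 without one Runx2 and Dlx5 were lower and Dlx6 did not pass.

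Runx2 (ENSMUSG00000039153, GRCm38 chromosome 17, 44495987 to 44814797, minus strand) measured 34.4 and 30.4 CPM in control-labelled libraries 1 and 2, and 23.4 and 23.2 CPM in knockout-labelled libraries 1 and 2. Both knockout-labelled libraries were below both controls. The change was 1.39-fold lower (95% interval 1.20 to 1.62), a log2 fold change of −0.48 with a standard error (SE) of 0.0906 (edgeR, adjusted p = 0.0106). In the authors' TPM, however, the same libraries measured 15.5 and 15.2 against 13.9 and 15.1, a difference of −0.08 on the log2(TPM + 0.1) scale (limma, adjusted p = 0.552). On that scale the median over all genes was 0.098. The counts per TPM of Runx2, relative to other genes, went from 0.526 and 0.46 to 0.425 and 0.385, a shift of −0.28 in log2 that was larger than that of 96.1% of 13055 genes. What caused this shift was not tested. Runx2 also shares reads with Runx2os1, a gene on the opposite strand. Its estimated counts are fractions (1162.09 and 859.68, then 568.2 and 738.23) that add up with those of Runx2os1 to the whole numbers 1281, 958, 625 and 832. Fitted on these sums, the log2 fold change was −0.47 (edgeR, adjusted p = 0.00946). Runx2os1 alone had a log2 fold change of −0.39 (edgeR, adjusted p = 0.198), and Supt3, which overlaps Runx2 on the plus strand, −0.46 (edgeR, adjusted p = 0.0871). Leaving out knockout-labelled library 1 or 2 kept the log2 fold change of Runx2 at −0.48 or −0.46, while the SE rose to 0.163 or 0.164 and the call was lost (edgeR, adjusted p = 0.0918 or 0.104).

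Runx1 (ENSMUSG00000022952, chromosome 16, 92601466 to 92826149, minus strand), best known for blood cell formation and also active in cartilage and bone precursors, was the most counted of the 9. It measured 76.6 and 82.3 CPM in the control-labelled and 77.9 and 75.1 CPM in the knockout-labelled libraries, and the groups overlapped. The log2 fold change was −0.05 (SE 0.0662, 95% interval −0.21 to 0.11, edgeR, adjusted p = 0.578). Per length the sign turned, with 24.5 and 28.5 TPM against 30.6 and 30.2 TPM. Runx1 differed by 0.20 on the log2(TPM + 0.1) scale, where the median over all genes was 0.098, and did not pass either (limma, adjusted p = 0.2). Without control-labelled library 1 it was called lower, at −0.10 (edgeR, adjusted p = 0.0386). Runx1 is also made by the hematopoietic cells whose markers were abundant in all 4 libraries, 4 of the 12 (33.3%, near the 30.5% of all genes) higher and none lower in the knockout-labelled ones, and their part in its level was not tested. Of the summed Runx family TPM, Runx1 made up 51% and 55% in control-labelled libraries, and 59.3% and 58.4% in knockout-labelled ones, while the sum itself stayed between 48.0 and 51.8 TPM in all 4. Runx2 made up 26.9% to 32.2%, and the rest was Runx3, a relative known from T cells and cartilage (log2 fold change −0.19, edgeR, adjusted p = 0.18). These shares and the steady sum hold in TPM only. The counts per TPM of Runx1 and Runx2 shifted more than those of 89% and 96.1% of 13055 genes, and Runx2 was lower in counts.

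Sp7 (ENSMUSG00000060284, chromosome 15, 102356609 to 102366325, minus strand) had 219 and 248 counts in the control-labelled libraries (6.48 and 8.77 CPM) and 54 and 74 in the knockout-labelled ones (2.23 and 2.32 CPM). The groups were far apart, and the difference of 3.33-fold exceeded the spread within either. The 95% interval of its log2 fold change of −1.74 ran from −2.24 to −1.24 (edgeR, adjusted p = 0.00189). Relative to Runx2, the factor it follows in the lineage, Sp7 went from 0.206 and 0.278 to 0.0835 and 0.08 in TPM per TPM, below both controls in both knockout-labelled libraries. Sp1 and Sp3, ubiquitous factors of the same zinc finger family, were instead slightly higher, by 0.39 (edgeR, adjusted p = 0.02) and 0.25 (edgeR, adjusted p = 0.0209) in log2.

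Dlx5 (ENSMUSG00000029755, chromosome 6, 6877805 to 6882085, minus strand) had 672 and 675 counts in control-labelled libraries, but 106 and 113 in knockout-labelled ones, or 19.9 and 23.9 against 4.37 and 3.55 CPM. The 5.55-fold difference was the largest among factors with at least 100 counts in a library of each label, with a log2 fold change of −2.47 (95% interval −2.85 to −2.10, edgeR, adjusted p = 0.00014). Its neighbour Dlx6 (ENSMUSG00000029754, chromosome 6, 6863334 to 6868568, plus strand), transcribed from the other strand, had 49 and 27 counts against 23 and 23. The Dlx6 levels of 1.449 and 0.955 CPM against 0.949 and 0.722 CPM nearly touched, and the log2 fold change of −0.55 (95% interval −1.43 to 0.33, edgeR, adjusted p = 0.305) did not pass at these counts. That interval does not overlap the one of Dlx5, although the difference between the neighbours was not tested. The antisense gene Dlx6os1 overlaps Dlx6 and had 20, 12, 7 and 4 counts in the same order of libraries (log2 fold change −1.35, edgeR, adjusted p = 0.12). Dlx6os1 passed the filter on low counts only through the control-labelled libraries, so its direction was fixed. Counts of both genes were whole numbers, without the fractions seen for Runx2, and whether they share reads was not tested.

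Dlx3 (ENSMUSG00000001510, chromosome 11, 95120119 to 95125296, plus strand) was scarce. It had 48 and 24 counts in the control-labelled libraries and 4 and 0 in the knockout-labelled ones, where a count of 0 still allows up to 3 counts. Summed over the libraries, 72 counts stood against 4, a ratio of 16.3 per unit of depth with an exact 95% interval of 6.09 to 61.3 that covers counting error only. It passed the filter on low counts only through the control-labelled libraries, so a gene that passed in this way had to be lower, and its call (log2 fold change −3.90, edgeR, adjusted p = 0.017) is read with that limit. Leaving out knockout-labelled library 2 gave a log2 fold change of −2.75 (edgeR, adjusted p = 0.0555). Over the Dlx family, summed TPM was 33.7 and 34.6 in control-labelled libraries, but 10.5 and 7.99 in knockout-labelled ones. Dlx5 made up 67% and 76.1% of it in the former and 50.2% and 53.2% in the latter. Dlx2, which acts in early craniofacial and neural patterning, had 262 and 183 counts against 46 and 70 and was lower by 3.46-fold (log2 fold change −1.79, edgeR, adjusted p = 0.00113).

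Msx2 (ENSMUSG00000021469, chromosome 13, 53466884 to 53473074, minus strand) measured 10.1 and 7.89 CPM in the control-labelled and 3.63 and 3.51 CPM in the knockout-labelled libraries. It was lower by 2.53-fold, a log2 fold change of −1.34 (95% interval −1.76 to −0.92, edgeR, adjusted p = 0.00256). Msx1 (ENSMUSG00000048450, chromosome 5, 37820485 to 37824583, minus strand) measured 5.89 and 5.20 CPM against 3.80 and 3.67 CPM. The groups did not overlap in either gene, but the change of Msx1 was smaller, 1.49-fold lower, with a log2 fold change of −0.57 (95% interval −0.96 to −0.18, edgeR, adjusted p = 0.0403). Without knockout-labelled library 1 or 2 Msx1 kept a log2 fold change of −0.59 or −0.54, but with a larger SE of 0.278 or 0.281 it lost its call (edgeR, adjusted p = 0.224 and 0.266). The order of the pair turned over. Msx2 exceeded Msx1 by 1.32 and 1.18 times in TPM in the control-labelled libraries and stood at 0.726 and 0.73 times Msx1 in the knockout-labelled ones. Dlx5 stood at 3.7 and 5.63 times the TPM of Msx2 in the control-labelled libraries and at 2.31 and 1.91 times in the knockout-labelled libraries.

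Twist1 (ENSMUSG00000035799, chromosome 12, 33957671 to 33959817, plus strand), the sole factor called higher, had 425 and 450 counts in control-labelled libraries, but 869 and 1314 in knockout-labelled ones. Levels went from 12.6 and 15.9 to 35.9 and 41.2 CPM without overlap. The rise was 2.72-fold (95% interval 2.17 to 3.4), a log2 fold change of 1.44 with an SE of 0.135 (edgeR, adjusted p = 0.00071). Twist2, its close relative, went the other way, from 10.5 and 11.9 to 6.52 and 6.84 CPM (log2 fold change −0.74, edgeR, adjusted p = 0.00665). The relatives were about level in the control-labelled libraries, with Twist1 at 0.946 and 1.06 times the TPM of Twist2, and at 4.36 and 4.76 times in the knockout-labelled ones. Since Twist1 was higher and Dlx5 lower, the ratio of Dlx5 to Twist1 in TPM went from 1.86 and 1.76 to 0.144 and 0.101. Twist1 relative to Runx2, which it antagonises, went from 0.788 and 0.983 to 2.63 and 2.79.

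**Figure D3:**
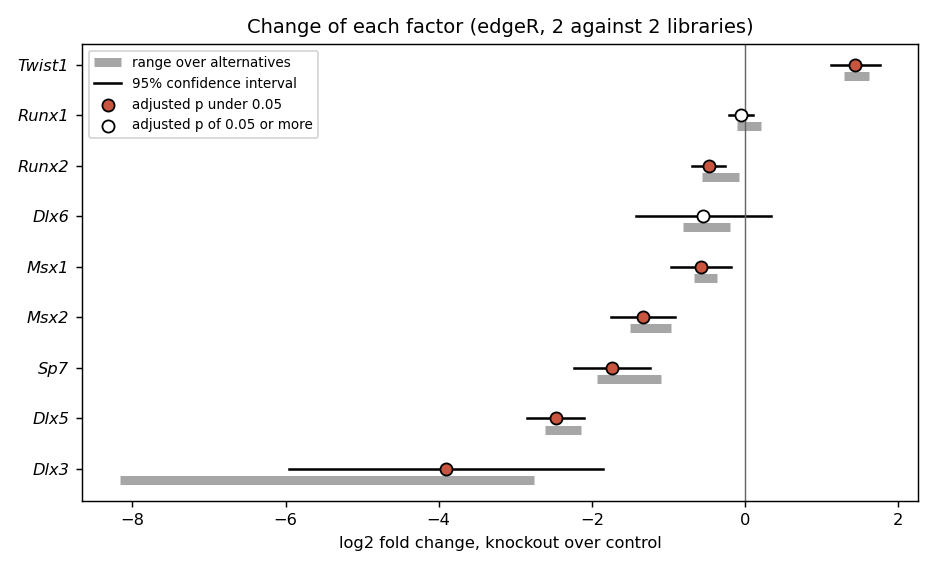
Log2 fold change of each factor, knockout-labelled over control-labelled (horizontal axis), from edgeR on 2 against 2 libraries, with the 95% confidence interval (black line) and the range over the alternative analyses (grey bar). Filled points passed an adjusted p of 0.05. Intervals of Dlx5, Sp7, Msx2 and Twist1 are far from 0 and so are their grey bars, while the grey bar of Runx1 crosses 0, that of Runx2 reaches −0.07 and that of Dlx3 reaches −8.16.

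These shifts rearranged the order of the factors. In mean TPM, the control-labelled libraries ran from Runx1 (26.5 ± 2.88, SD, n = 2) and Dlx5 (24.5 ± 2.64), which overlapped, through Runx2 (15.3 ± 0.184), Twist1 (13.6 ± 1.95), Msx2 (5.39 ± 1.01), Msx1 (4.29 ± 0.467), Sp7 (3.71 ± 0.735) and Dlx6 (2.69 ± 0.82) to Dlx3 (0.625 ± 0.233). Runx2 and Twist1 differed by less than the larger SD, Msx2 and Msx1 by about as much as it, and Msx1, Sp7 and Dlx6 overlapped each with the next. In the knockout-labelled libraries Twist1 came first (39.4 ± 3.95), followed by Runx1 (30.4 ± 0.297), Runx2 (14.5 ± 0.877), Dlx5 (4.75 ± 0.714), Msx1 (3.09 ± 0.0707) and Msx2 (2.25 ± 0.0424), which overlapped Dlx6 (1.64 ± 0.905). Dlx6 in turn overlapped Sp7 (1.19 ± 0.0354), and Dlx3 was last (0.05 ± 0.0707). The Dlx6 values there were 2.28 and 1 TPM on 23 counts in each library. Its counts per TPM, relative to other genes, were 0.39 and 0.674 in knockout-labelled libraries 1 and 2. The shift from the controls, 0.40 in log2, was larger than that of 98% of 13055 genes, and its cause was not tested. Twist1 thus moved from the fourth place to the first and Dlx5 from the second to the fourth.

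**Figure D4:**
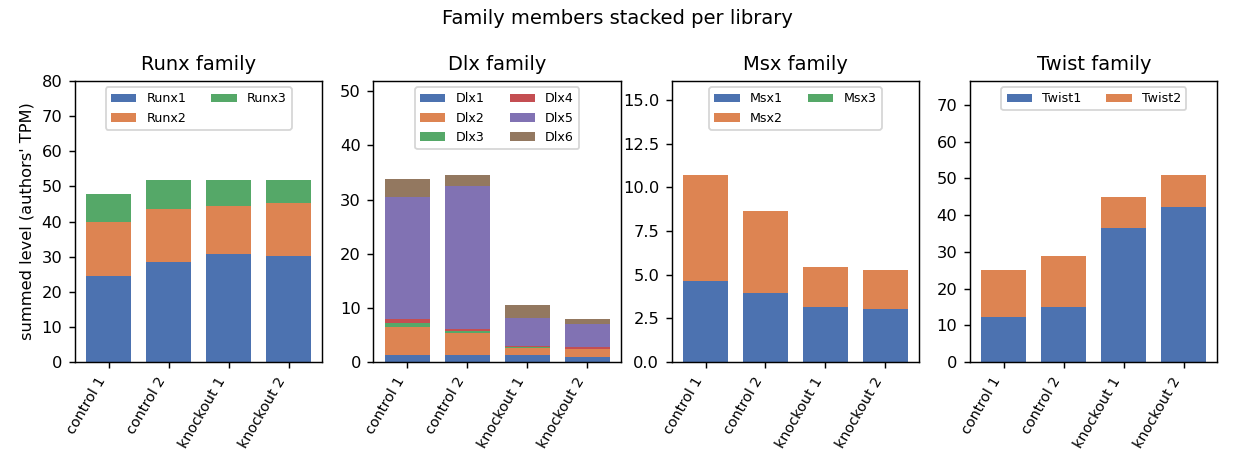
Summed TPM of the Runx, Dlx, Msx and Twist families in each of the 4 libraries (vertical axis, from 0, with its own scale per family), with the genes of a family stacked in colours. The Runx columns stay between 48.0 and 51.8 TPM, the Dlx and Msx columns are lower in both knockout-labelled libraries, and the Twist columns are higher there, with Twist1 as the larger part. The log2 difference of Runx2 was smaller in TPM (−0.08) than in counts (−0.48).

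Among 133 genes of the lists used here, the one whose centred log2 CPM over the 4 libraries was closest to each factor was found by the root-mean-square difference. Runx2 and Msx1 were each other's closest match (0.0252 log2 units). Runx1 was closest to Tcf7l2 (0.0307), Dlx6 to Itga2b (0.0379), Twist1 to Lipe (0.054), Msx2 to Id2 (0.0655), Sp7 to Id1 (0.0915), Dlx5 to Cidec (0.127) and Dlx3 to Msx2 (0.197). Over 4 libraries in 2 groups, such a match says little more than that the fold changes were of like size.

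Proteins that work with the factors were read from the same fit. Of the 14 paralogs in the Runx, Dlx, Msx, Twist and Sp families that are not among the 9, 10 were tested, of which Sp1 and Sp3 were higher and Dlx2 and Twist2 lower (median log2 fold change −0.39). Of 15 Runx partners and corepressors 5 were higher and none lower (median 0.25), and this share of 33.3% was near the 30.5% of all genes. Cbfb, the partner that Runx proteins need to bind DNA, measured 107 ± 1.17 and 104 ± 2.60 CPM (log2 fold change −0.05, edgeR, adjusted p = 0.593). The largest changes were those of Zfp521, a zinc finger antagonist of Runx2 (0.58, edgeR, adjusted p = 0.00615), and Smurf1, a ubiquitin ligase that targets Runx2 (0.56, edgeR, adjusted p = 0.00316), beside Tle3, Tle4 and Hdac4, which are corepressors. By CPM averaged over all 4 libraries the ubiquitin ligase Wwp1 and the Tle relative Aes led the list. They had log2 fold changes of 0.52 and 0.26 and did not pass (edgeR, adjusted p = 0.0594 and 0.118). Both counts depended on single libraries. Without control-labelled library 1 or 2, 11 (8 higher, 3 lower) or 12 (10 higher, 2 lower) Runx partners were called, and without knockout-labelled library 1 or 2 it was 2 or 1. For the paralogs the counts in the same order were 6, 6, 1 and 2.

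Among 12 genes of E proteins and other HLH factors, not all of them partners of Twist1, 10 were tested and 9 passed, 4 higher and 5 lower (median −0.24). The 5 lower were Id1, Id2, Id3, Hes1 and Hey1. The Id proteins lack a DNA-binding part and tie up E proteins, and of the 4 listed 3 were lower and Id4 was higher, from 46.2 ± 1.39 to 57.9 ± 1.51 CPM (0.33, edgeR, adjusted p = 0.0133). Id3, at 328 ± 11.8 and 158 ± 1.64 CPM, and Id2, at 222 ± 20.9 and 99.3 ± 1.54 CPM, were the most abundant of the list by CPM averaged over all 4 libraries, with log2 fold changes of −1.05 (edgeR, adjusted p = 9.79e-05) and −1.16 (edgeR, adjusted p = 0.000198), and Id1 fell by 1.55 on the log2 scale (edgeR, adjusted p = 6.92e-05). The E proteins Tcf4 and Tcf12, which can dimerise with Twist1, were higher by 0.52 (edgeR, adjusted p = 0.00354) and 0.42 (edgeR, adjusted p = 0.00665). Hand2, a limb factor of the same family as Twist1, had 15 and 0 counts against 108 and 139. It passed the filter on low counts only through the knockout-labelled libraries, so it had to be higher, and its fitted log2 fold change of 4.19 (edgeR, adjusted p = 0.00589) rests on those few control-labelled counts. The Notch target Hey1 had 290 and 293 counts against 25 and 56 (−2.73, edgeR, adjusted p = 0.000671).

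Other regulators of the lineage went both ways, with 9 of 20 higher and 6 lower (median 0.34). The largest changes were those of Ebf2, a factor of immature mesenchyme and brown fat, from 5.43 ± 0.773 to 44.8 ± 0.203 CPM (3.04, edgeR, adjusted p = 2.01e-05), and Vdr, the vitamin D receptor, from 162 ± 8.80 to 19.3 ± 1.12 CPM (−3.07, edgeR, adjusted p = 5.05e-06). By CPM averaged over all 4 libraries the leading genes were Fosl2, an AP-1 factor, which was lower (−1.42, edgeR, adjusted p = 6.22e-05), and Prrx1, which marks limb mesenchyme and whose regulatory sequence drives the Cre, which was higher (1.05, edgeR, adjusted p = 0.00015). Of 20 genes that osteoblasts express under these factors 18 were tested, and 11 were lower and 1 higher (median −0.90). The 11 include Ifitm5, with 14 and 12 counts against 3 and 3. It passed the filter on low counts only through the control-labelled libraries and had to be lower. Mmp13, a collagenase and Runx2 target, was lower from 640 ± 27.8 to 24.5 ± 1.20 CPM (−4.70, edgeR, adjusted p = 1.61e-06), and Smpd3, a sphingomyelinase needed for mineralisation, was the 1 that was higher (2.07, edgeR, adjusted p = 2.87e-05). Spp1 (osteopontin) and Sparc (osteonectin) had the highest CPM averaged over all 4 libraries. Sparc was lower (−1.02, edgeR, adjusted p = 0.000265), and Spp1 differed too much between the control-labelled libraries, 5863 and 14630 CPM, to pass (−0.86, edgeR, adjusted p = 0.131). Spp1 and Mmp13 are also made by macrophages and by cartilage cells, whose part in these values was not tested. As a share of those tested, 40% of the paralogs, 33.3% of the Runx partners, 90% of the HLH list, 75% of the regulators and 66.7% of the osteoblast genes passed, beside 30.5% of all genes. The HLH share includes Hand2 and the osteoblast share Ifitm5, each past the filter through 1 label only.

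**Figure D5:**
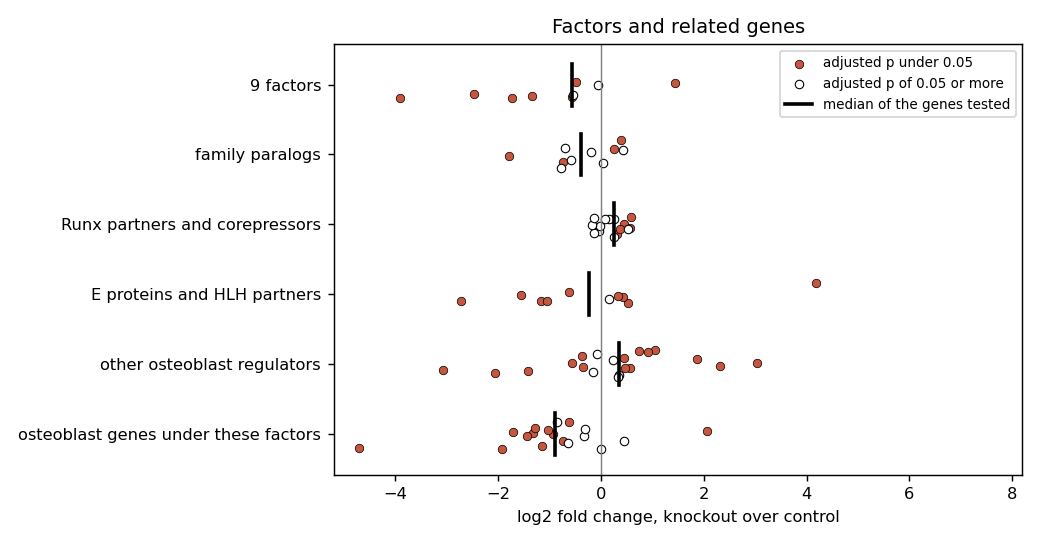
Log2 fold change, knockout-labelled over control-labelled (horizontal axis), of the 9 factors and of the tested genes of 5 related lists (rows). Each point is a gene, filled where it passed an adjusted p of 0.05 in edgeR, and the black bar is the median of the list. The factors and the osteoblast genes lie mostly to the left of 0 with medians of −0.57 and −0.90, and the Runx partners lie near 0 with a median of 0.25.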

How the data were processed

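RNA-seq and MeRIP-Seq of mouse bone marrow MSCs were used. The submitters' processing notes name HISAT2 2.0.4, TopHat and MACS2 with the builds mm10 and mm9. Which tool counted reads per gene, and whether strand was used, is not given in the sources used here. Estimated counts of reads per gene, not normalized, were deposited by the authors beside a value headed FPKM. The deposited FPKM columns have the same sum in each library and were treated as TPM. The deposited peak list gives the pileup signal at the summit, the fold enrichment as a ratio, and −log10 values for p and q as MACS2 writes them (p-value and q-value, columns without a readable header). It is 1 list, and whether samples were pooled is not given.

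Entries without a gene name (0.11% to 0.125% of counts) were left out. Counts were rounded, filtered with filterByExpr (minimum count 10), scaled by TMM, and fitted without a block by quasi-likelihood in edgeR 4.0.16 (R 4.3.3), two-sided. Benjamini-Hochberg adjustment ran over 15327 genes, with a threshold of 0.05. The code was tested on simulated data. Alternatives were a replicate block, no filter, DESeq2 1.42.0, size factors by median of ratios in edgeR, limma 3.58.1 on log2(TPM + 0.1) or log2(TPM + 1) for genes of at least 0.5 TPM in 2 libraries, each library left out, and the knockout-labelled libraries summed. Adding the counts of Runx2 and Runx2os1 was chosen after seeing the data. Shares within families were taken in TPM, which compares genes per length, in place of counts.

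Peaks were placed by summit on mm9 and GENCODE vM1 (last coding base without the stop codon). The transcript with the longest coding sequence that holds the summit in an exon was used. Sequences are those of mm9. Intervals cover counting error where so named, since PCR copies cannot be told from separate molecules.

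The factors and lists were chosen with earlier results of these data known. Named genes were the 9 factors, the 2 genes with the highest mean CPM over the 4 libraries and the 2 most changed called genes of a list, the closest pattern to each factor, overlapping genes and Mettl3. Other genes were named after their values were seen.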

Additional observations from a re-analysis of the deposited data

How the results depend on the processing

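Dlx5, Sp7, Msx2 and Twist1 kept their direction and their call in all 11 alternatives, with log2 fold changes between −2.62 and −2.15, −1.94 and −1.10, −1.51 and −0.97, and 1.29 and 1.62. Of the 9 factors 7 passed with no filter and with median-of-ratios size factors, and 6 with DESeq2, which lost Msx1 (adjusted p = 0.18). Each of these counts includes Dlx3. With limma on log2(TPM + 0.1) or log2(TPM + 1), 4 of 8 factors passed (Twist1 higher, Dlx5, Sp7 and Msx2 lower). Dlx3 fell under the TPM filter, and Runx1 turned to 0.20 (limma, adjusted p = 0.2 and 0.198). The median log2 fold change over all genes was 0.098 and 0.086 in these 2 fits, and −0.0038 in the main fit. The cause of the turn of Runx1 was not tested. With the knockout-labelled libraries summed 5 factors passed, and Runx2 and Msx1 did not (edgeR, adjusted p = 0.0894 and 0.222). With a library left out, 4 to 8 factors passed. Dlx3 is among those that passed with the summed libraries and with a library left out, except knockout-labelled library 2. The value of −8.16 for Dlx3, without knockout-labelled library 1, is set by the lone remaining library at 0 counts and is no bound.

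Genes called over the whole table numbered 4677 (2100 higher, 2577 lower), 8750 of 15691 or 7934 of 15856 without control-labelled library 1 or 2, 1904 of 15919 or 1867 of 15819 without knockout-labelled library 1 or 2, 2012 with the summed libraries, and 2929 (1636 higher, 1293 lower) and 2950 (1649 higher, 1301 lower) with limma. Fits that leave out a library compare 1 library with 2 and assume that the lone one varies like the pair. Runx partners called numbered 8 with no filter, 2 with the summed libraries and 1 to 12 with a library left out, and paralogs 2 and 1 to 6 in the last 2 settings. Counts for the other 3 lists stayed within 1.5 times. An m6A peak above the median −log10 q-value was held by 3 factors and one above the median fold enrichment by 5.

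With the replicate number as a block, 7 factors, Dlx3 among them, and 4881 genes passed. The labels give no source for a pairing, and same-numbered libraries deviated together by r = 0.0264 over 15327 genes. The knockout-labelled pair differed little beyond counting error (chi-square 1.82 times its expectation), so this low value cannot tell whether libraries were paired. Dlx3 and Dlx6 had at most 49 counts in a library, and their 95% intervals were the widest among the factors.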
